A study of Mus musculus with 42 samples.

Results

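SOX2, β-catenin and LEF1 binding was read at 5 genes that regulate paraxial mesoderm, Tbx6, Msgn1, Mesp1, Mesp2 and Hes7, out of 21938 protein-coding genes. The genes were taken by name, with earlier results of these data known, and each locus was the gene body extended by 10 kb on both sides. Peaks were collected from 30 lists of chromatin immunoprecipitation followed by sequencing (ChIP–seq), each called by the authors in 1 library. Because the lists held between 26940 and 1008922 peaks, the 20000 best of each by −log10 q were used, with the full lists beside them. Peak lists hold no expression values, so neither the loss of T/Bra or the Cdx genes nor the expression of the 5 genes could be checked.

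The cells were mouse embryonic stem cells of the HM1 TetON line (strain 129), differentiated towards epiblast-like cells with bFGF and the inhibitor LGK974, which keeps cells from secreting WNT, before collection at 72 h. CHIR99021 (CHIR), an inhibitor of GSK3 that turns on the WNT pathway, was present from day 2 to day 3 in every group except SOX2 WT noCHIR. The genotypes were wild type (WT), Cdx1/2/4-/- (CdxKO) and T/Bra-/- (T/BraKO), and since each mutant is a line of its own, line and genotype cannot be told apart. SOX2, β-catenin and LEF1 were each profiled in all 3 genotypes with CHIR, and with the noCHIR group this gave 10 groups of 3 independent biological replicates. The 12 input samples of the 42 in the series were not analysed here.

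Paraxial mesoderm is the tissue beside the neural tube that segments into somites. WNT signalling stabilizes β-catenin, which reaches DNA through TCF/LEF factors such as LEF1, and T/BRA is a T-box factor of the primitive streak and tailbud. Tbx6 (a T-box factor) and Msgn1 (a bHLH factor) direct cells from the primitive streak and tailbud to presomitic mesoderm. Mesp1 and Mesp2 are neighbouring bHLH genes. Mesp1 is known for early mesoderm that leaves the streak, and Mesp2 for setting the boundary of the next somite. Hes7 encodes a transcriptional repressor of the segmentation clock. SOX2, a factor of pluripotent and neural cells, is present in the progenitors that can still choose between neural tissue and mesoderm.

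Overlapping peaks of the 20000 best of all lists were merged into regions. The 5 loci held 48 of the 336178 regions, of which 19 were found in at least 3 lists and 26 in 1 list. Fold enrichment is the deposited ratio of reads at the summit to the local background, and a list without a peak in a region was given a fold of 1. A list with several peaks in a region was given the highest of their folds, wherever in the region the summit lay. Positions are from the start site of the named gene in mm10, negative upstream. In T/BraKO, β-catenin was lower at 1 region of each of the 5 loci, while the other 7 tested regions of these loci did not pass the test. The reference sequence (GRCm38.p6, the build of the lists) within 100 bp of the median summit is shown for the 5 regions where β-catenin was lower. It is printed on the strand of the gene, with motif matches in capitals. Of windows that lie in an untranslated region, only the match and its flanks are shown.
Tbx6 +3871 bp T-box match, chr7:126785296-126785325: caccctttagtTCACACCTtgatttcactc
Tbx6 +3871 bp TCF/LEF match, chr7:126785328-126785356: ccccctctggcTTCAAAGctcaggcaagg
Msgn1 -182 bp, chr12:11209054-11209254: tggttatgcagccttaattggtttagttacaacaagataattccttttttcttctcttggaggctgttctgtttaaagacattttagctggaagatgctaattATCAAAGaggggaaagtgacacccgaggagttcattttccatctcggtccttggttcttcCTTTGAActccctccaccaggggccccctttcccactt
Mesp1 +4321 bp, chr7:79789367-79789567: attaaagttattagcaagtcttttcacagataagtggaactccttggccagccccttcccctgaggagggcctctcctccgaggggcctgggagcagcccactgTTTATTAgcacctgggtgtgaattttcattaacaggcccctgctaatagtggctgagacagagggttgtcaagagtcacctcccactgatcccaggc
Mesp2 +70 bp T-box match, chr7:79810847-79810876: aggggaccaccTCACACCTttagtccagat
Hes7 -1326 bp, chr11:69118978-69119178: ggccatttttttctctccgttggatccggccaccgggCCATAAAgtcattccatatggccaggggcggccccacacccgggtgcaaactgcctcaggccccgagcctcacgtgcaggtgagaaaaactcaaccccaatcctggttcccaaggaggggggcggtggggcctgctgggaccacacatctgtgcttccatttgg

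The motifs searched, on both strands, were AGGTGTGA for T-box, CTTTGAA or CTTTGAT for TCF/LEF, CCATTGT or CCTTTGT for SOX, and, for CDX, AATAAA or CATAAA with a C or T before it. No match overlapped another. The T-box motif occurred in 2 of the 5 windows, at Tbx6 and Mesp2, beside 1.81% of the 15621 β-catenin regions tested in windows of the same length. TCF/LEF motifs occurred in 2 of 5, at Tbx6 and Msgn1, beside 40.5% of these regions. CDX motifs occurred in 2 of 5, at Mesp1 and Hes7, beside 12.4%, and SOX motifs in 0 of 5, beside 16.9%. The next sequences are from 2 regions whose β-catenin values in T/BraKO overlapped those in WT, 1 upstream of Hes7 and 1 at the start of Mesp1.
Hes7 -2326 bp, chr11:69117978-69118178: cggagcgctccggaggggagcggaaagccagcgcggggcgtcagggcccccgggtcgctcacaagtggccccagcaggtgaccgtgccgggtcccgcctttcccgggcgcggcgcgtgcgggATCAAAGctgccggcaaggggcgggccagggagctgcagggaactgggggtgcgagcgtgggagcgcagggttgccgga
Mesp1 +162 bp T-box match, chr7:79793567-79793596: aggggcccgctTCACACCTagggctcagga
Mesp1 +162 bp TCF/LEF match, chr7:79793604-79793632: gctcgagccggCTTTGATatgctgatgaa

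The Hes7 region had a TCF/LEF match 25.0 bp from the summit. The Mesp1 region held the T-box motif and 2 TCF/LEF matches. Over the 9 regions searched, T-box matches were found in 3, TCF/LEF in 4, SOX in 1 and CDX in 2. The search outside each gene's most often listed region was added after the values were seen, and a match describes letters and not a bound site.

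**Figure D1:**
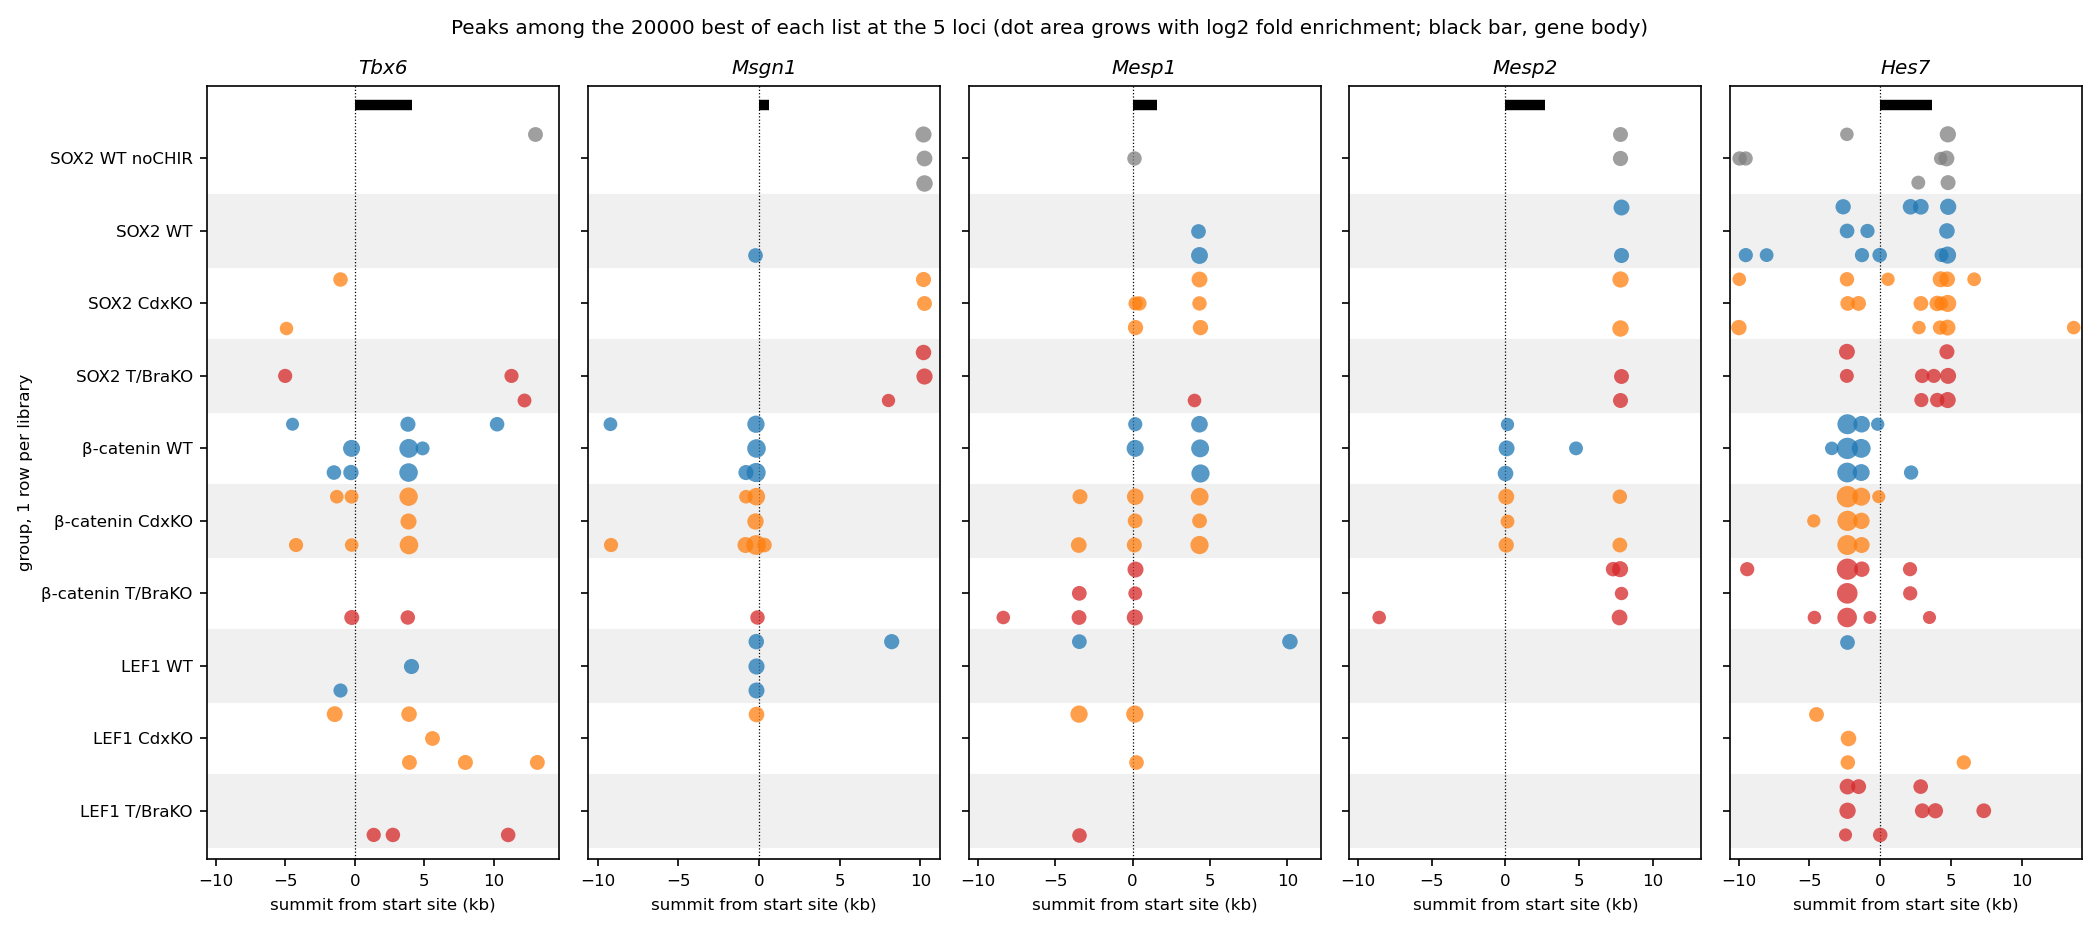
Summits of the 20000 best peaks of each list by distance from the start site of the gene (kb), 1 row per library and 3 rows per group; dot area grows with log2 fold enrichment and the black bar is the gene body. The β-catenin column of dots at Msgn1 −182 bp stands in all 6 WT and CdxKO rows and in 1 of 3 T/BraKO rows, and SOX2 at Msgn1 +10209 bp stands in the 3 noCHIR rows and in 0 of 3 WT rows.

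The first comparison asked whether β-catenin binding at these genes depends on T/BRA. It was made with limma on log2 fold enrichment over all 15621 regions found in at least 3 β-catenin lists, with Benjamini-Hochberg adjustment and a threshold of 0.05. In T/BraKO against WT, 576 regions were called lower (3.69%) and 39 higher (0.25%). Of the 12 regions tested at the 5 loci, 5 were called lower, 1 per gene, and 0 higher. Their median log2 difference was -0.85, beside 0.26 over all regions tested. The 5 called regions were in the 20000 best of 3 of 3 WT and 3 of 3 CdxKO lists, and of at most 1 T/BraKO list. They thus entered the test through the groups where they were high, which favours a lower value in T/BraKO. Counted by gene, 4.37% of the 6905 protein-coding genes with a tested region in the same window had at least 1 called lower, and 5 of 5 of these genes did. Since the genes were chosen with earlier results of these data known, this share is a description and no test of enrichment.

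At Msgn1 the region was the promoter, at −182 bp (chr12:11208801-11209399). β-catenin fold enrichment was 20.5, 34.7 and 44.7 in WT, 22.9, 14.2 and 57.5 in CdxKO, and in T/BraKO 4.94 and 7.26 with no peak in replicate 1. Every T/BraKO library was below every WT and CdxKO library. Such separation, here and at the other called regions, is in the values that gave the calls and is no further evidence. The log2 difference from WT was -3.26 ± 0.59 (SE, n = 3 against 3, limma adjusted p = 0.00069). With the WT libraries averaged, this promoter ranked 610th of the 15621 regions by β-catenin level, and in T/BraKO 12340th.

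At Tbx6 the region lay at +3871 bp (chr7:126784889-126785775), in the 3′ UTR of the gene. Fold enrichment was 9.17, 38.9 and 34.5 in WT and 32.3, 12.8 and 35.1 in CdxKO. The T/BraKO libraries gave 5.29, no peak and 7.37, all below the lowest WT value. The log2 difference from WT was -2.77 ± 0.64 (limma adjusted p = 0.00947). The Tbx6 promoter at −233 bp (chr7:126781018-126781557) did not pass the test, at -0.10 ± 0.99 (limma adjusted p = 0.983). Its values there were no peak, 18.3 and 10.1 in WT and 5.64, 2.99 and 8.85 in T/BraKO. The small difference depends on the fold of 1 given to WT replicate 1, since the WT lists with a peak were above all T/BraKO lists. It does not show that the promoter was unchanged.

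At Mesp1 the region was intergenic, 4321 bp from the start site and beyond the end of the gene (chr7:79789146-79789933). Fold enrichment was 15.99, 26.5 and 29.5 in WT, 24.0, 8.06 and 29.4 in CdxKO, and 5.17, no peak and 4.00 in T/BraKO. T/BraKO did not overlap either other genotype, and the log2 difference from WT was -3.08 ± 0.57 (limma adjusted p = 0.000698). The Mesp1 region at +162 bp (chr7:79793259-79793933), in the 5′ UTR, had overlapping values in all genotypes. They were 6.69, 18.7 and 6.17 in WT, 15.3, 8.04 and 8.94 in CdxKO and 12.5, 6.08 and 13.0 in T/BraKO, a log2 difference of 0.12 ± 0.52 from WT (limma adjusted p = 0.954).

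At Mesp2 the region covered the start site, at +70 bp (chr7:79810610-79811072). Fold enrichment was 5.05, 12.2 and 10.97 in WT and 12.2, 5.93 and 9.66 in CdxKO. None of the 3 T/BraKO lists held a peak there, even in full. The fitted log2 difference from WT, -3.13 ± 0.85 (limma adjusted p = 0.0292), therefore depends on the fold of 1 given to a list without a peak and is no bound.

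The Mesp2 locus also held a region where the groups were apart in the opposite direction, at +7796 bp (chr7:79818244-79818771, intergenic). WT lists gave no peak, no peak and 2.74 for β-catenin, CdxKO lists 7.32, 4.74 and 8.30, and T/BraKO lists 12.9, 5.25 and 11.3. All 6 mutant libraries were above the 3 WT libraries. The log2 difference from WT was 2.24 ± 0.86 in CdxKO (limma adjusted p = 0.258) and 2.71 ± 0.86 in T/BraKO (limma adjusted p = 0.0774), so neither passed. In the 20000 best it was found in 0 of 3 WT and 3 of 3 T/BraKO lists, a pattern of 4.63% of the 12109 regions in at least 3 of these 6 lists. The reverse pattern, 3 of 3 WT and 0 of 3 T/BraKO lists, held for 3.44% of them and at these loci for Mesp1 +4321 bp and Mesp2 +70 bp.

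At Hes7, adjacent regions differed. The region at −2326 bp (chr11:69117417-69118660, intergenic) had the highest β-catenin of the 5 loci, with fold enrichment of 63.7, 122 and 59.2 in WT, 127, 71.7 and 62.4 in CdxKO and 116, 87.5 and 53.7 in T/BraKO. The genotypes overlapped, and the log2 difference of T/BraKO from WT was 0.08 ± 0.37 (limma adjusted p = 0.957). By level it ranked 75th of 15621 regions in WT and 63rd in T/BraKO. The region at −1326 bp (chr11:69118763-69119547, intergenic) had 15.7, 39.4 and 17.5 in WT, 27.4, 14.5 and 12.4 in CdxKO and 10.3, 4.08 and 2.62 in T/BraKO. All T/BraKO values were below all others, with a log2 difference of -2.21 ± 0.51 from WT (limma adjusted p = 0.00773).

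**Figure D2:**
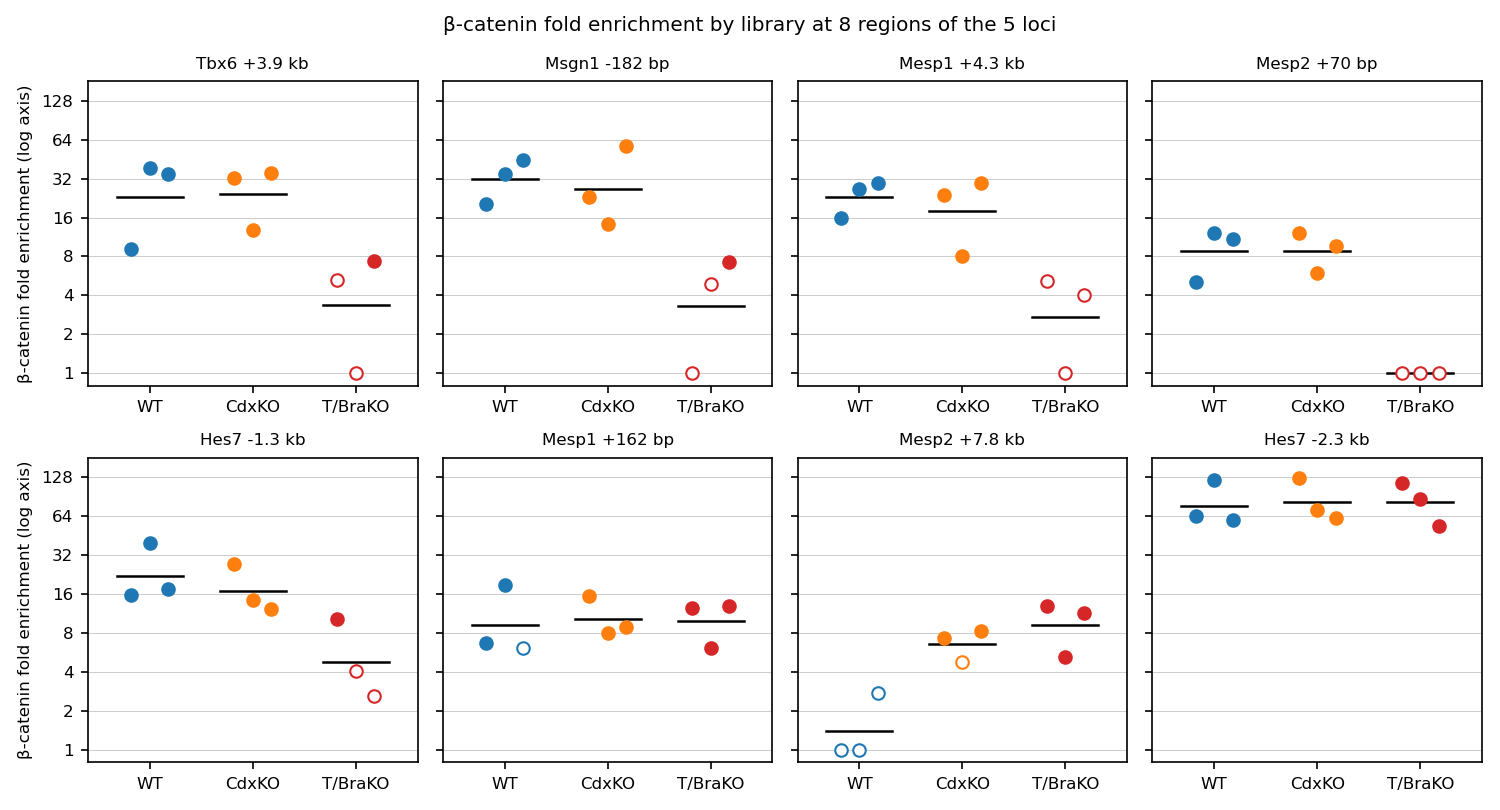
β-catenin fold enrichment (log axis) in each library at 8 regions, with the distance from the start site above each panel; filled points are in the 20000 best of their list, open points are not, a point at 1 is a list without a peak, and lines are geometric means of 3 libraries. At the 5 regions Tbx6 +3871, Msgn1 −182, Mesp1 +4321, Mesp2 +70 and Hes7 −1326 bp all T/BraKO points lie below all WT points, at Hes7 −2326 bp they lie between 53.7 and 116 among WT points of 59.2 to 122.

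The lists behind these values differed in length. The WT β-catenin lists held 40067, 108507 and 469083 peaks and the T/BraKO lists 132907, 61413 and 37687. Replicate 1 of WT, with 40067 peaks, had the 5 regions among its 20000 best, at the lowest WT fold at each. Replicate 1 of T/BraKO, with 132907, had the Hes7 region among its 20000 best. Replicate 3 of T/BraKO, the shortest list with 37687, had the Tbx6 and Msgn1 regions, and replicate 2 had no such peak. Read depth is unknown, and the part of depth or list length in the result was not tested. The 5 calls also rested on single libraries. Without WT replicate 2 the fit called 0 of 5 genes, with adjusted p between 0.05004 (Msgn1 −182 bp) and 0.181 (Tbx6 +3871 bp), and without WT replicate 3 it called 2 of 5. Leaving out T/BraKO replicate 2 left 3 of 5 genes called. The Mesp2 call was also lost without CdxKO replicate 1 (adjusted p = 0.0653) or replicate 3 (0.0556), and the Hes7 call without T/BraKO replicate 3 (0.0678). Centring each library, which moved T/BraKO against WT by 0.18 on the log2 scale, kept the 5 calls. The log2 differences stayed negative throughout, between -4.54 and -1.77 over all settings. At Msgn1, Tbx6 and Mesp1 their size depends in part on the fold of 1 given to the T/BraKO list without a peak. Without that library they were -2.40 (Msgn1), -1.89 (Tbx6) and -2.35 (Mesp1).

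For CdxKO against WT, 1.44% of the 15621 β-catenin regions were called, and 0 of the 12 at these loci. At the 5 regions lower in T/BraKO the CdxKO differences were 0.08 ± 0.64 (Tbx6), -0.26 ± 0.59 (Msgn1), -0.38 ± 0.57 (Mesp1), 0.02 ± 0.85 (Mesp2) and -0.38 ± 0.51 (Hes7) on the log2 scale. One of the 12 regions, Mesp2 +7796 bp, had an unadjusted p under 0.05, as did 1725 of all 15621. Both mutants were compared with the same WT libraries, so the mutants were also compared directly in the same fit, a comparison added after the values were seen. T/BraKO was called lower than CdxKO at 5.21% of the 15621 regions and at the same 5 regions of these loci. These 5 had been called against WT for low values in the same T/BraKO libraries, so the comparisons are not independent. The 814 regions called lower, beside 696 higher, became 493 without CdxKO replicate 1 and 484 without CdxKO replicate 3. The limma adjusted p were 0.00425 (Tbx6), 0.001 (Msgn1), 0.00173 (Mesp1), 0.0155 (Mesp2) and 0.0206 (Hes7). The Mesp2 call was lost without CdxKO replicate 1 (0.0946) or 3 (0.0741) or with 20000-best values only (0.0563), and the Hes7 call without CdxKO replicate 1 (0.143) or T/BraKO replicate 2 (0.078) or 3 (0.128).

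**Figure D3:**
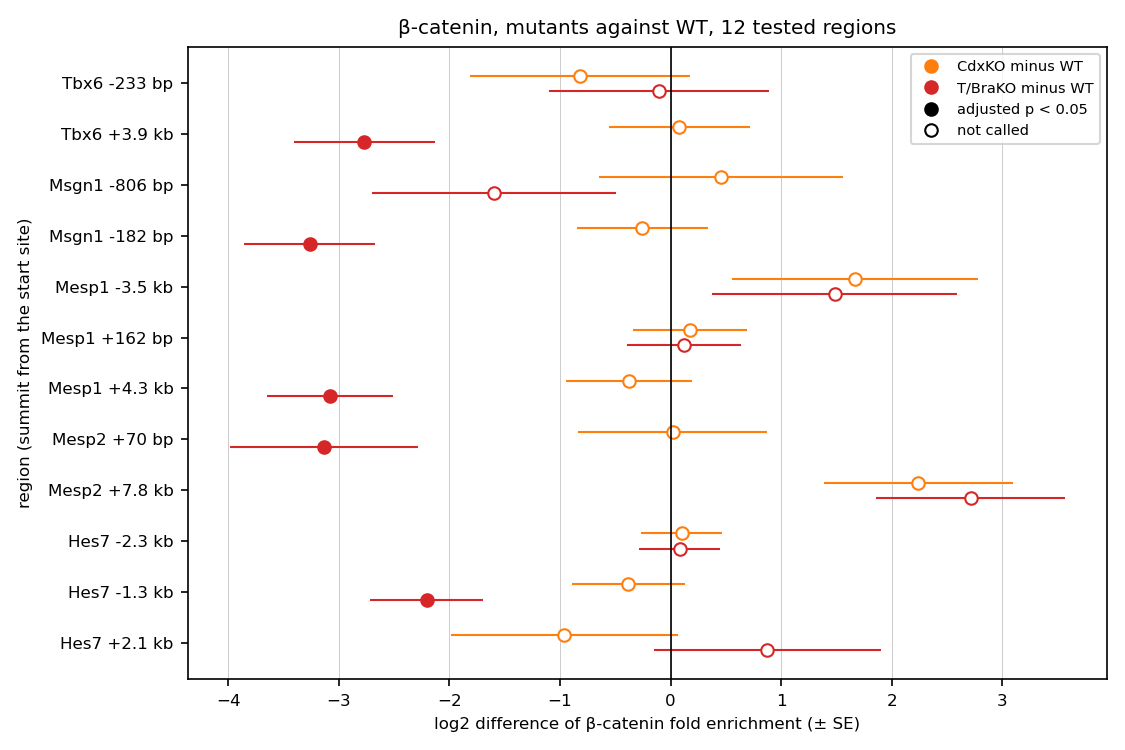
Log2 difference of β-catenin fold enrichment from WT (x axis, bars are SE of the fit) at the 12 tested regions of the 5 loci, for CdxKO and T/BraKO; filled points passed an adjusted p of 0.05. The 5 filled points are T/BraKO, between -3.26 and -2.21, and at the same 5 regions the CdxKO points lie between -0.38 and 0.08.

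LEF1 was tested at 3270 regions, of which 4 lay at these loci. In T/BraKO against WT 1.19% of the 3270 were called and in CdxKO against WT 0%, with 0 of 4 in either. At the unadjusted p under 0.05, 310 and 253 regions passed and at these loci 1 and 0. The Msgn1 promoter was the 1 region of these loci in the 20000 best of all 3 WT LEF1 lists. Its fold enrichment was 10.4, 13.0 and 12.5 in WT, 10.9, 5.29 and 3.32 in CdxKO, and 3.48, 8.20 and no peak in T/BraKO. The T/BraKO values were below all WT values, but the log2 difference of -1.96 ± 0.88 did not pass (limma adjusted p = 0.47). This promoter was in the 20000 best of 3 of 3 WT and 0 of 3 T/BraKO lists, as were 6.14% of the 1742 regions in at least 3 of these lists.

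In the region at Tbx6 +3871 bp LEF1 reached 7.54, 9.21 and 3.88 in WT and 3.01, 5.08 and 5.23 in T/BraKO, and the groups overlapped. The best LEF1 summits lay at +3868, +4015 and +3832 bp in WT and at +3678, +3511 and +3452 bp in T/BraKO. The peaks compared need therefore not be the same site, and the T/BraKO peaks ranked 826456, 247612 and 67497 in their lists. At Hes7 −2326 bp the values were 8.03, 5.73 and no peak in WT, 7.66, 10.7 and 7.44 in CdxKO and 11.4, 14.2 and 4.75 in T/BraKO. Here the log2 difference of T/BraKO from WT was 1.35 ± 0.82 (limma adjusted p = 0.658). At Mesp1 −3465 bp (chr7:79797088-79797486, intergenic) LEF1 had 8.03, 5.12 and no peak in WT, 20.3, 6.00 and 4.68 in CdxKO and 5.76, 6.69 and 7.58 in T/BraKO, overlapping in all genotypes. The 2 Mesp2 regions named above were in no LEF1 list's 20000 best and were not tested. In the full lists, +7796 bp had weak LEF1 peaks of 4.14 to 5.02 in 3 of 3 WT lists. One of 6.67 was in 1 of 3 CdxKO lists, and T/BraKO had none. At +70 bp 2 of 3 CdxKO lists held a LEF1 peak, of at most 6.59, and no WT or T/BraKO list did. The shares of all regions with these patterns were not computed.

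SOX2 was compared in WT with and without CHIR and, with CHIR, between WT and each mutant, over 20150 regions of which 9 were at these loci and none at Tbx6. With CHIR against noCHIR, 10.4% of the regions were called lower and 1.58% higher (2098 and 319, or 946 and 563 after centring each library), and at these loci 1 was called lower and 0 higher. It lay downstream of Msgn1, at +10209 bp (chr12:11198603-11198964, intergenic), and carried the 1 SOX motif match, -3.0 bp from the median summit along the chromosome.
Msgn1 +10209 bp, chr12:11198663-11198863: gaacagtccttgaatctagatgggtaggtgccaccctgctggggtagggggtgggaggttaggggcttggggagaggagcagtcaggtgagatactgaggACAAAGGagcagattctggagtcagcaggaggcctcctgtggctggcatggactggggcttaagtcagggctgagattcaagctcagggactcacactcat

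SOX2 fold enrichment there was 13.1, 11.6 and 15.02 in WT noCHIR. With CHIR it was no peak, 6.90 and no peak in WT, 9.21, 8.53 and 5.14 in CdxKO, and 10.3, 13.2 and no peak in T/BraKO. The WT libraries with CHIR were all below the noCHIR libraries, with a log2 difference of -2.79 ± 0.88 (limma adjusted p = 0.0362). Its size depends on the fold of 1 given to WT lists without a peak, and was -2.38 with the lowest fold of each list. The region was in the 20000 best of 3 of 3 noCHIR and 0 of 3 WT lists, as were 25.5% of the 11515 regions in at least 3 of these lists, and 12.6% of the 9327 genes with a tested region had 1 called lower. The call was lost when fold enrichment was centred per library, which moved the difference to -2.33 (adjusted p = 0.0923). It was also lost without any 1 of the 3 noCHIR libraries (0.0984, 0.0852 and 0.0972), without WT replicate 1 (0.0967) or 3 (0.104), or without CdxKO replicate 1 (0.0508). Neither mutant passed the test against WT here, at 1.96 ± 0.88 in CdxKO (limma adjusted p = 0.43) and 1.44 ± 0.88 in T/BraKO (limma adjusted p = 0.705). No β-catenin or LEF1 list had a peak in this region.

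The other 8 SOX2 regions of these loci did not pass any test. Hes7 +4753 bp (chr11:69123778-69125677) was in the 20000 best of all 12 SOX2 lists and nearer to the start of Aloxe3, a lipoxygenase gene, at 739 bp. Its fold enrichment was 13.7, 11.7 and 8.81 in noCHIR, 13.7, 10.8 and 19.1 in WT, 12.6, 19.0 and 12.4 in CdxKO and 8.89, 12.7 and 13.1 in T/BraKO, and all 4 groups overlapped. The 12.6 of CdxKO replicate 1 was a peak at +4269 bp, and its peak at +4730 bp had 10.7. At Mesp2 +7796 bp, 11 of the 12 SOX2 lists had a peak, between 4.65 and 14.7. At Mesp1 +4321 bp SOX2 had no peak in the 3 noCHIR lists, 7.97 and 17.4 in 2 of 3 WT lists, 11.8, 7.24 and 9.95 in CdxKO and 5.68 and 5.56 in 2 of 3 T/BraKO lists. The log2 difference of WT from noCHIR there was 2.37 ± 1.01 (limma adjusted p = 0.118). In the region at Hes7 −1326 bp SOX2 was 6.44 to 6.77 in WT, 3.84 to 8.36 in CdxKO and at most 4.31 in noCHIR and 5.87 in T/BraKO. The best SOX2 summits in this region lay at −1441, −900 and −1287 bp in WT and at −1854 and −1778 bp in T/BraKO, so different sites may be compared. The log2 differences there were 2.03 ± 0.95 for WT from noCHIR (limma adjusted p = 0.154) and -1.06 ± 0.95 for T/BraKO from WT (limma adjusted p = 0.872). In the full lists, the Msgn1 promoter had weak SOX2 peaks of 5.45, 5.84 and 7.82 in the 3 WT lists with CHIR, at ranks 245899, 56761 and 10930. A peak of 4.93 was in 1 of 3 CdxKO lists, and no noCHIR or T/BraKO list held one. List lengths ran from 205833 to 1008922 peaks in WT, 81239 to 201773 in noCHIR and 26940 to 266820 in T/BraKO. The part of list length was not tested, and the share of all regions with this pattern was not computed. The promoter was too rarely among the 20000 best for a test.

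For SOX2 in CdxKO against WT, 0.0298% of the 20150 regions were called, and in T/BraKO against WT 0%. An unadjusted p under 0.05 was found at 2115 and 1509 of the 20150 regions. At these loci 0 of 9 were called in either, and 1 and 0 had an unadjusted p under 0.05. The median log2 difference of the 9 was 0.57 in CdxKO and -0.32 in T/BraKO, beside 0.35 and 0.10 over all regions tested.

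**Figure D4:**
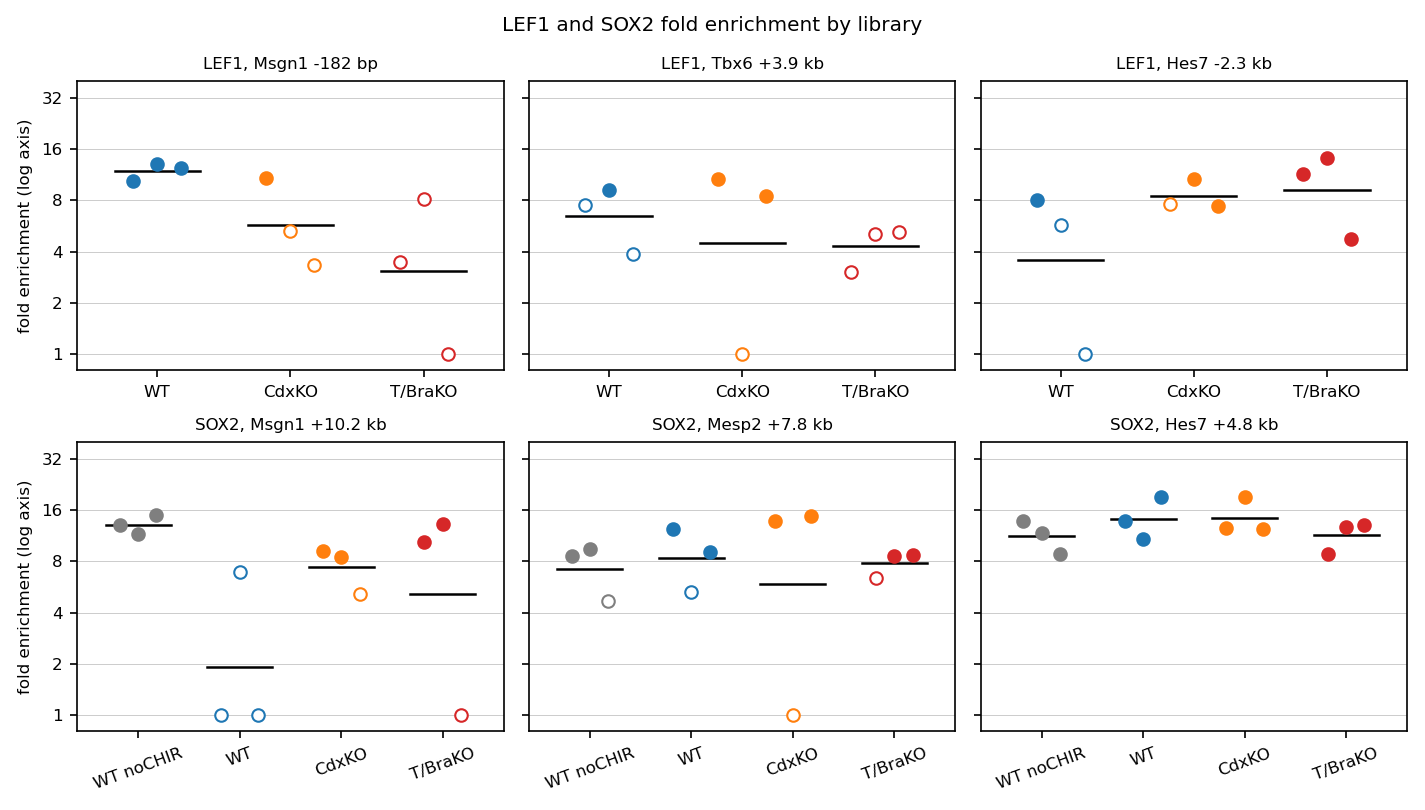
LEF1 (top) and SOX2 (bottom) fold enrichment on a log axis in each library, with the region above each panel; filled points are in the 20000 best of their list, a point at 1 is a list without a peak, and lines are geometric means of 3 libraries. LEF1 at Msgn1 −182 bp is 10.4 to 13.0 in WT and at most 8.20 in T/BraKO, and SOX2 at Msgn1 +10209 bp is 11.6 to 15.02 without CHIR and at most 6.90 in WT with it.

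The number of peaks at a locus was a coarser measure. Of the 30 lists, 28 had a 20000-best peak at Hes7, 20 at Msgn1, 20 at Mesp1, 18 at Tbx6 and 17 at Mesp2. Summed over the 5 loci, β-catenin lists had 10.7 ± 0.577 peaks in WT (SD, n = 3), 11.7 ± 3.21 in CdxKO and 8 ± 3.61 in T/BraKO. SOX2 lists had 5.00 ± 2.00 in noCHIR, 6.00 ± 2.65 in WT, 9.67 ± 0.577 in CdxKO and 6.00 ± 2.65 in T/BraKO. LEF1 lists had 3.00 ± 1.73, 4.67 ± 2.31 and 4.33 ± 1.53 in WT, CdxKO and T/BraKO. A peak in the stretch shared by the Mesp1 and Mesp2 loci was counted at both.

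With 3 lists against 3 an exact permutation test cannot go below p = 0.1, so counts were only checked for overlap between groups. At Tbx6 the WT β-catenin lists had 3, 3 and 3 peaks and the T/BraKO lists 0, 0 and 2, a pattern of fewer peaks in every list that 1.93% of the 15842 genes with a peak showed. At Msgn1 the LEF1 lists had 2, 1 and 1 in WT and 0, 0 and 0 in T/BraKO, as 1.47% of 18090 genes did. At Hes7 they had 1, 0 and 0 in WT and 3, 4 and 2 in T/BraKO, a gain shared by 1.4% of these genes. At the other loci and in the other comparisons the groups overlapped. At Msgn1, β-catenin counts were 2, 1 and 2 in WT and 0, 0 and 1 in T/BraKO, and at Mesp2 1, 2 and 1 against 2, 1 and 2, so the Mesp2 count did not fall with its +70 bp region. With the 20000 best ranked by fold, 2 of these patterns were lost. The WT and T/BraKO counts then overlapped for β-catenin at Tbx6 (2, 3 and 2 against 0, 0 and 2) and LEF1 at Hes7 (1, 0 and 0 against 2, 2 and 1). The LEF1 pattern at Msgn1 stayed.

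In the full lists peak numbers per list ran from 1 to 18 at Tbx6, 0 to 11 at Msgn1, 0 to 13 at Mesp1, 0 to 15 at Mesp2 and 2 to 22 at Hes7. Since the lists differ in length, differences between groups in these numbers are given only to show how results depend on the processing.

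Other genes of somite formation were read by the same windows. Of 22 genes on this list, 18 had a tested β-catenin region, and in T/BraKO 1 of them, Pcdh19 (a protocadherin), had a region called lower and 0 had one called higher, beside the 4.37% of all tested genes with a region called lower. Its β-catenin values were 5.90, 13.9 and 20.4 in WT with no peak in the 3 T/BraKO lists, at 49649 bp from the start site (log2 difference -3.57 ± 0.78, limma adjusted p = 0.00418, a size that depends on the fold of 1 given to a list without a peak). In CdxKO 0 of 18 had a called region. For SOX2 with CHIR against noCHIR, 3 of 18 were called lower and 0 higher, beside 12.6% of all tested genes called lower. They were Lfng (a modulator of Notch, 66.1, 72.6 and 44.2 in noCHIR and 17.6, 10.1 and 22.4 with CHIR, limma adjusted p = 0.0051), Pax3 (a somite and neural crest factor, 13.5, 15.7 and 13.2 in noCHIR and no peak with CHIR, limma adjusted p = 0.00668) and Pcdh19, at 2 regions. LEF1 was tested at 6 of the 22 genes, with 0 called.

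The genes whose peaks followed each member most closely over the 30 libraries were also sought, by the correlation of the highest log2 fold enrichment in the window. The libraries share antibodies, and these values follow the factor as well as the locus. For Hes7 they were Cdx2 (r = 0.91) and Frmd4a (r = 0.89), for Mesp2 St6galnac3 (0.80) and AF067063 (0.80), and for Tbx6 Mre11a (0.79) and Scly (0.77). For Mesp1 they were Aen (0.78) and Appl1 (0.76), and for Msgn1 1700093K21Rik (0.74) and Rp1 (0.72).

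The windows also covered other genes, and a region near a gene is not shown to act on it. The Tbx6 window overlapped Gdpd3, Ypel3, Ppp4c and Aldoa, that of Mesp1 Wdr93, that of Mesp2 Anpep and that of Hes7 9130213A22Rik and Aloxe3, while that of Msgn1 overlapped no other protein-coding gene. The start site nearest to the region was that of the member at each of the 9 regions searched for motifs, and that of Aloxe3 at Hes7 +4753 bp.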

How the data were processed

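Per the labels and the study's methods, the authors processed reads with the nf-core/chipseq pipeline: adapters were trimmed with Trim Galore, reads aligned to mm10 with BWA, filtered, and narrow peaks called with MACS2 in each library. The deposited ratio (fold enrichment), −log10 p and −log10 q describe each summit. The deposited summit offset gave positions. Which input served which library is not given in the sources used here. Read depth is unknown, and no counts were used, so the count-based test of the study was replaced by limma on log2 fold.

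Peaks were ranked by −log10 q. Regions were 20000-best peaks merged at 1 bp overlap, tested if in at least 3 lists of a factor, with all groups of a factor in 1 fit (trend, robust). The alternatives were full lists, 5000 best, ranking by fold, windows of 50 kb, another fold for missing peaks, centring per library, 20000-best values only, at least 2 lists, a block and leaving out libraries. The tests were checked on simulated log2 values in which no list lacked a peak, so the fold of 1 given to such lists was not covered. The simulated spread was also smaller than that of groups at called regions, such as a log2 SD of 1.54 for β-catenin in T/BraKO at Tbx6 +3871 bp. Genes came from GENCODE M21. Python 3.11.15, pandas 2.3.3, R 4.3.3 and limma 3.58.1 were used.

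The members and lists were chosen with earlier results of these data known. Regions named were, for each gene, the one in the 20000 best of the most lists, any in 3 of 3 against 0 of 3 lists of 2 compared groups, and any called by limma. Other tested regions of the loci are given where a comparison needs them.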

Additional observations from a re-analysis of the deposited data

Results flagged for a closer look

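The effects of the 2 mutants on β-catenin, each measured against WT, differed at 5 regions by the direct comparison of T/BraKO with CdxKO in limma (9 β-catenin libraries in the fit). T/BraKO was lower by a log2 difference of -2.85 at Tbx6 +3871 bp, -3.01 at Msgn1 −182 bp, -2.70 at Mesp1 +4321 bp, -3.15 at Mesp2 +70 bp and -1.82 at Hes7 −1326 bp. The Mesp2 value depends on the fold of 1 given to the 3 T/BraKO lists, which had no peak, and was -2.54 with the lowest fold of each list. All 3 T/BraKO libraries were below all 3 CdxKO libraries at each of the 5 regions. These regions were named for low values in the same T/BraKO libraries, and the comparison was added after the values were seen. T/BraKO was called lower than CdxKO at 5.21% of the 15621 regions tested. The Mesp2 and Hes7 calls were lost without single libraries. With 3 libraries a group, single outlying libraries were not tested for.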

How the results depend on the processing

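The number of genes with a β-catenin region called lower in T/BraKO was 5 of 5 under each alternative that kept all libraries, except that the Mesp2 +70 bp call was lost with values from the 20000 best only (adjusted p = 0.0963, 0.0129 to 0.0963 over the alternatives that kept all libraries), and ranged from 0 to 5 when libraries were left out. For SOX2 with CHIR the 1 gene became 0 after centring per library, and 0 to 1 when libraries were left out. Numbers of regions called over the genome changed as follows. For SOX2 with CHIR against noCHIR, 2417 became 1509 after centring, with 563 higher and 946 lower in place of 319 and 2098, and 1014 to 2546 when libraries were left out. Centring shifts for this comparison were -0.46 on the log2 scale. For SOX2 in CdxKO, 6 became 16 with the lowest fold of the list in place of 1, 23 after centring, 202 with the 20000 best only, 13 with at least 2 lists, and 2 to 47 when libraries were left out. For β-catenin in CdxKO, 225 became 108 with the 20000 best only, and 54 to 236 when libraries were left out. For LEF1 in T/BraKO, 39 became 11 with the 20000 best only, and 0 to 41. Without single libraries SOX2 in T/BraKO had 0 to 12 regions called and β-catenin in T/BraKO 234 to 628.

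Peak numbers summed over the 5 loci depended on the list used. The full lists held between 26940 and 1008922 peaks, so their differences also follow list length and are not read as binding. With full lists the difference was 29.7 for SOX2 with CHIR against noCHIR (1.00 in the 20000 best), -19.7 for SOX2 in CdxKO (3.67), -24.7 for SOX2 in T/BraKO (0), -8.67 for β-catenin in CdxKO (1.00), -6.67 for β-catenin in T/BraKO (-2.67), 12 for LEF1 in CdxKO (1.67) and 4.67 for LEF1 in T/BraKO (1.33). With the 5000 best it was 1.33 for SOX2 in CdxKO and -0.667 for LEF1 in T/BraKO, and with 50 kb 6.33 and -3.

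Without single libraries the summed 20000-best peak difference ran from -4.67 to -1.17 for β-catenin in T/BraKO, 2.67 to 5.17 for SOX2 in CdxKO, 1 to 3 for LEF1 in CdxKO and 0.5 to 2.33 for LEF1 in T/BraKO. It changed sign for SOX2 with CHIR (-0.5 to 2), SOX2 in T/BraKO (-1 to 1.5) and β-catenin in CdxKO (-0.167 to 2.83).

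Same-numbered libraries did not deviate together (correlations of -0.06 to 0.0736), so replicate numbers were not taken as pairs. With a replicate block 5 of 5 genes kept a β-catenin region called lower in T/BraKO, and the regions called there were 624 against 615. The block changed no other call at these loci.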
